A study of Mus musculus with 18 samples.

Results

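The erythroid miRNAs miR-451a, miR-144 and miR-486 were followed in small RNA sequencing of mouse femoral condyle cartilage in a knee injury model, in which the anterior cruciate ligament (ACL) is ruptured by loading. They were chosen by name, as the mature arms of the cluster of miR-144 and miR-451a and of the paired miR-486a and miR-486b hairpins, by a rule that reads no measured value, though earlier results of these data were known when the set was proposed. The choice gave 7 columns of the 1412 mature miRNAs counted, and all 7 were among the 428 that passed the filter on low counts. The columns of miR-486a-5p and miR-486b-5p held the same count in each of the 18 libraries, so the 7 columns were 6 distinct measurements.

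All libraries came from male C57bl6 mice aged 12 weeks. In the injured groups a single 12 N load was applied to the right knee to rupture the ACL, and cartilage was taken 1 or 7 days later (3 libraries each). The unloaded left knee of loaded mice gave the contralateral groups at day 1 and day 7 (3 libraries each), and unloaded mice gave 6 naïve libraries, labelled day 7. Each library was made from cartilage pooled over several mice. The paper counts 6 naïve mice, and 6 and 12 loaded mice at day 1 and day 7. Left and right naïve knees were pooled apart, so the 6 naïve libraries share mice, and an injured and a contralateral library can too. A supplementary note gives partial loss of cartilage at day 7 as the reason for the pool size there. Pool size and cartilage loss thus go with the day 7 loaded mice, and their part in the differences was not tested. Shared pools are not marked in the labels. The p-values therefore treat all libraries as independent, and n counts libraries, not separate pools of mice.

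miRNAs are short RNAs that hold back the translation and stability of mRNAs carrying a match to their seed, the bases near the 5′ end. miR-451a and miR-144 are made from a single precursor whose transcription is driven by the erythroid factor GATA1, and miR-451a is unusual in being cut by AGO2 and not by Dicer. miR-486 lies in an intron of the ankyrin gene Ank1, which is used in red cells and in muscle, so miR-486-5p is abundant in both tissues. All are among the common miRNAs of circulating red cells, which articular cartilage, having no vessels of its own, should hardly contain. In pooled tissue, a smaller number of cells of a type and less of a miRNA in each cell cannot be told apart.

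The mature sequences of the cluster of miR-144 and miR-451a are shown because its 3 arms have different seeds, with the seed (bases 2 to 8) in capitals. They come from RefSeq on GRCm38.p6, where 3 of the 7 arms were matched. miR-101a-3p, which is not a member, is shown with them. It was the only counted miRNA with a RefSeq sequence that shared bases 2 to 7 with miR-144-3p.
miR-451a: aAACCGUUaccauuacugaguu
miR-144-5p: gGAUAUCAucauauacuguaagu
miR-144-3p: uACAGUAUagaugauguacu
miR-101a-3p: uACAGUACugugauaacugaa

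Both hairpins of the cluster lie on the plus strand of chromosome 11, with Mir144 at 78073005 to 78073070 and Mir451a at 78073170 to 78073241. They are 99 bases apart, in no annotated host gene. The nearest coding gene is Eral1, and Mir451b is annotated on the opposite strand at the position of Mir451a. miR-144-5p (23 bases) occupies bases 6 to 28 of its 66-base hairpin and miR-144-3p (20 bases) bases 43 to 62. miR-451a (22 bases) occupies bases 17 to 38 of its 72-base hairpin. No other counted miRNA with a RefSeq sequence shared bases 2 to 8 with any of these 3 arms. Counted miRNAs without one were not compared. The miR-486 hairpins overlap on opposite strands of chromosome 8. Mir486 is at 23142555 to 23142682 on the plus strand, and the hairpin of the miR-486b arms, Mir3107, is at 23142573 to 23142662 on the minus strand. Both lie within Ank1 and overlap none of the exons of the 15 Ank1 transcripts that span them, so they are intronic, and both lie within the non-coding gene Gm15816 of the minus strand. The 3p columns were nearly copies of each other too, with a miR-486b-3p count of 0.945 to 0.992 times that of miR-486a-3p in each library, so reads of the miR-486 copies cannot be attributed to either hairpin.

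Library totals ran from 758388 to 4088852 counts, a 5.39-fold range, and miR-140-5p, the cartilage miRNA, had a mean of 4848 ± 1328 CPM in naïve libraries (SD, n = 6). CPM are counts scaled to a common library size after TMM normalisation, and a fold change is the difference of group means on the log2 CPM scale from limma-voom over all 428 miRNAs, with Benjamini-Hochberg adjusted p under 0.05 as the call. The mean over the 18 libraries was 4603 CPM for mmu-miR-486a-5p and its copy mmu-miR-486b-5p (place 35 of 428 by mean CPM), 1452 for mmu-miR-451a (place 64), 403 for mmu-miR-144-5p (place 110), 374.4 for mmu-miR-486a-3p (place 115), 363.3 for mmu-miR-486b-3p (place 116) and 265.9 for mmu-miR-144-3p, the least abundant. A mature miRNA gives a read of its whole length, so these places need no length correction, though ligation favours some sequences over others. Counting each pair of miR-486 columns once, the arms held between 0.306% and 1.26% of the counts of a library. The marker lists described below show that the libraries also held many miRNAs tied to other tissues. In naïve libraries they summed to 137607 ± 50278 CPM for skeletal muscle, 66776 ± 15020 for vascular and 7899 ± 1551 for cartilage miRNAs (SD, n = 6). Which tissue the miRNAs of red cells came from was not tested.

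miR-486-5p was lower in day 7 injured cartilage than in every other group, at 2150.5 ± 418 CPM (SD, n = 3) against 4979 ± 1095 in naïve cartilage (n = 6), a 2.32-fold difference. Both 3p arms were lower too, by 2.15-fold for miR-486a-3p and 2.14-fold for miR-486b-3p. miR-451a and the miR-144 arms, which share the red-cell association, did not pass the test in any comparison. Thus 3 of the 6 measurements were called in day 7 injured against naïve cartilage, all lower, where 18.2% of the 428 miRNAs were called in either direction and 3.74% were called lower.

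The miR-486 5p arm gave 2506, 2256 and 1690.1 CPM in the 3 day 7 injured libraries, and 4355, 4173 and 3230.0 in the 3 day 7 contralateral libraries. In naïve libraries it ran from 3937 to 6939 with a median of 4557. The day 1 libraries gave 3812, 7771 and 6255 CPM in injured knees and 5429.9, 5173 and 6333 in contralateral knees. Every day 7 injured library was therefore below every library of the other 4 groups. Taken a pair of groups at a time, day 7 injured values did not overlap naïve ones for 24.1% of the 428 miRNAs. That share was 26.6% against day 7 contralateral and 34.3% against day 1 injured libraries, and the share below all 4 groups at once was not computed. The day 1 injured libraries spread from below the lowest naïve library to above the highest. In order of mean, day 1 injured (5946 ± 1998 CPM) stood above day 1 contralateral (5645 ± 609), naïve, day 7 contralateral (3919.6 ± 604) and day 7 injured cartilage, and among the first 4 no fitted pair differed by the test.

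**Figure D1:**
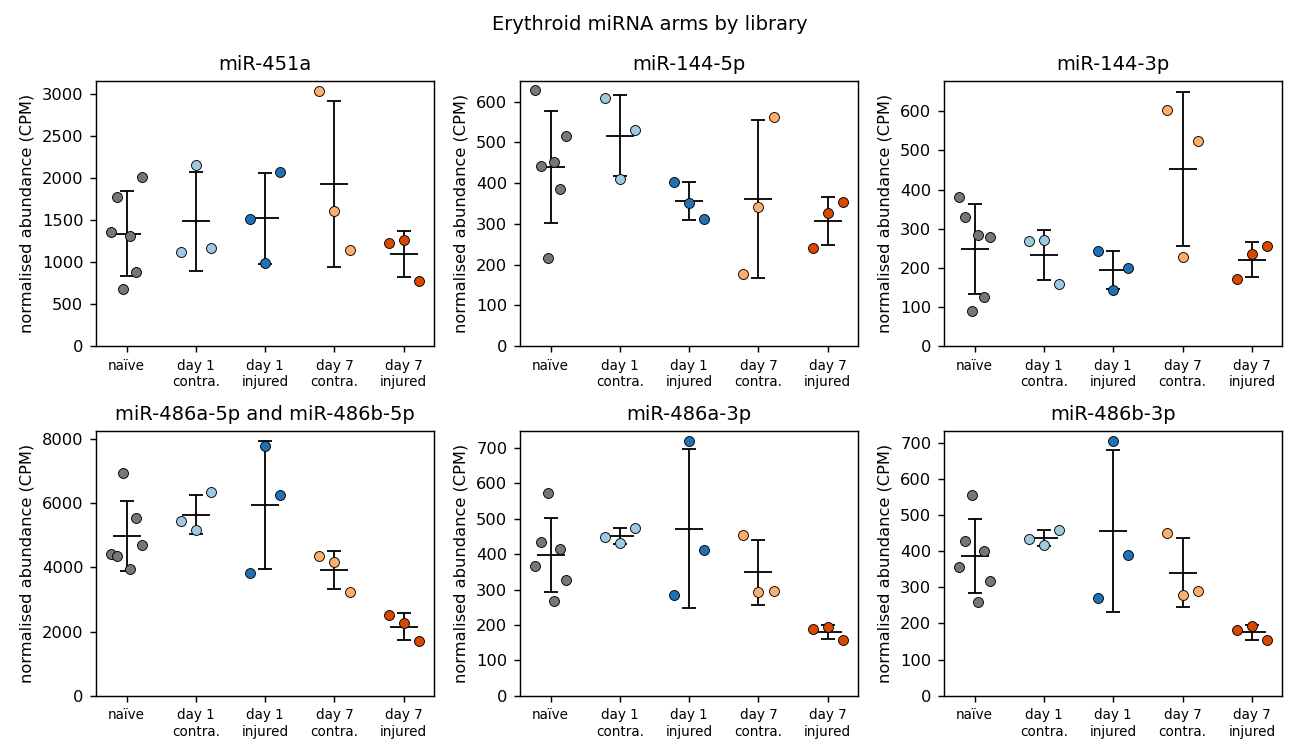
Normalised abundance (CPM) of each erythroid miRNA measurement in the 18 libraries by group. Points are libraries, the long bar is the group mean and the whiskers are 1 SD (n = 6 naïve, n = 3 elsewhere). The 3 day 7 injured libraries lie lowest in the panels of miR-486-5p (1690.1 to 2506 CPM) and of both miR-486 3p arms, and overlap the naïve libraries in the panels of miR-451a and miR-144. Day 7 injured and naïve values did not overlap for 24.1% of the 428 miRNAs.

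The log2 fold change of miR-486a-5p was -1.22 ± 0.24 (SE) against naïve cartilage, with an adjusted p of 0.000673 by limma-voom. Leaving out each of the 18 libraries in turn gave -1.26 to -1.02, with adjusted p from 0.000326 to 0.0134. Against the contralateral knee of the same day it was -0.89 ± 0.27 (adjusted p 0.0297 by limma-voom), and against day 1 injured cartilage -1.43 ± 0.27 (adjusted p 0.000652). The call against the contralateral knee was the less stable one. It was lost without day 7 injured library 3 (-0.68, adjusted p 0.235 by limma-voom), without day 7 injured library 2 or day 7 contralateral library 1 or 2 (adjusted p 0.0674, 0.0784 and 0.0846), and with library totals in place of TMM (adjusted p 0.142), and leaving out single libraries gave -1.04 to -0.68. In contralateral knees miR-486a-5p was also lower at day 7 than at day 1, by -0.53 ± 0.26 on the log2 scale, with groups that did not overlap (as for 8.64% of the 428 miRNAs), an unadjusted p of 0.0559 and an adjusted p of 0.701 by limma-voom, so it was not called. The comparisons of day 7 injured cartilage share its libraries and are not independent of each other.

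miR-486a-3p, the arm opposite the 5p strand, gave 189.6, 195.05 and 156.8 CPM in day 7 injured libraries against 454.6, 293.2 and 296.97 in day 7 contralateral libraries. In naïve libraries it ran from 266.9 to 573.9 CPM with a median of 391. Its naïve and day 7 injured values did not overlap, as was so for 24.1% of the 428 miRNAs. It was called against naïve (log2 fold change -1.10 ± 0.28, adjusted p 0.00598 by limma-voom) and against day 1 injured cartilage (-1.28 ± 0.32, adjusted p 0.00686). Against the contralateral knee the adjusted p was 0.0581 (-0.92 ± 0.32), just outside the threshold. The call against naïve was lost without day 7 injured library 3 (adjusted p 0.0561 by limma-voom), and that against day 1 without the same library (0.0725) or without day 1 injured library 2 (-0.82, adjusted p 0.0964). miR-486b-3p behaved as its near copy, with 182.7, 191.9 and 152.8 CPM in day 7 injured libraries, a log2 fold change of -1.10 ± 0.28 against naïve (adjusted p 0.00696 by limma-voom, and 0.0606 without the same library) and -0.92 ± 0.32 against the contralateral knee (adjusted p 0.062).

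miR-451a, the most abundant miRNA of mature red cells, gave 1232, 1269 and 780.5 CPM in day 7 injured libraries. Naïve libraries ran from 684 to 2010.4 CPM with a median of 1339, and the day 7 contralateral libraries gave 3042, 1610.5 and 1147. The injured values lay inside the naïve range and overlapped the contralateral one, which was itself the widest of the study. Against naïve the log2 fold change was -0.25 with a 95% interval of -1.01 to 0.51 (adjusted p 0.723 by limma-voom), and against the contralateral knee -0.73 with an interval of -1.59 to 0.13 (adjusted p 0.311). Those intervals include no difference, and also a decrease as large as that of miR-486-5p in the second comparison. That second value ran from -1.05 to -0.31 when single libraries were left out, and was -0.31 without day 7 contralateral library 1, which also sets the high contralateral mean. Day 1 means were 1525 ± 543.2 CPM in injured and 1486 ± 587 in contralateral cartilage, so by mean the groups ranked day 7 contralateral (1933.2 ± 988), day 1 injured, day 1 contralateral, naïve (1338 ± 506) and day 7 injured (1094 ± 272), with no fitted pair differing by the test.

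miR-144-5p, from the first hairpin of the cluster, gave 241.8, 326.3 and 354.7 CPM in day 7 injured libraries against 216.9 to 627.5 in naïve libraries (median 446). The day 7 contralateral libraries gave 177.2, 342.02 and 562.3 CPM, spanning the injured values on both sides. Its log2 fold change was -0.46 ± 0.33 against naïve (adjusted p 0.409 by limma-voom) and -0.09 ± 0.37 against the contralateral knee (adjusted p 0.916). Weighting libraries by their quality brought the first to -0.60 with an adjusted p of 0.0331 by limma-voom, the only setting in which it was called. At day 1 it was 356 ± 46.2 CPM in injured and 516 ± 99.9 in contralateral cartilage (SD, n = 3 each), and these 2 groups did not overlap, as was the case for 8.64% of the 428 miRNAs. The adjusted p of that difference was 0.997 by limma-voom.

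miR-144-3p, the arm of the same hairpin with the seed shown above, gave 170.4, 235 and 256 CPM in day 7 injured libraries. Naïve libraries ran from 88.5 to 381.2 CPM with a median of 281. The day 7 contralateral libraries gave 602, 229 and 525 CPM, which included the highest values of the study. Its log2 fold change was -0.01 ± 0.41 against naïve (adjusted p 0.988 by limma-voom) and -0.91 ± 0.47 against the contralateral knee (adjusted p 0.251). The contralateral level stood above the naïve one by 0.91 ± 0.41 on the log2 scale, with an unadjusted p of 0.0374 and an adjusted p of 0.675 by limma-voom, so it was not called.

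**Figure D2:**
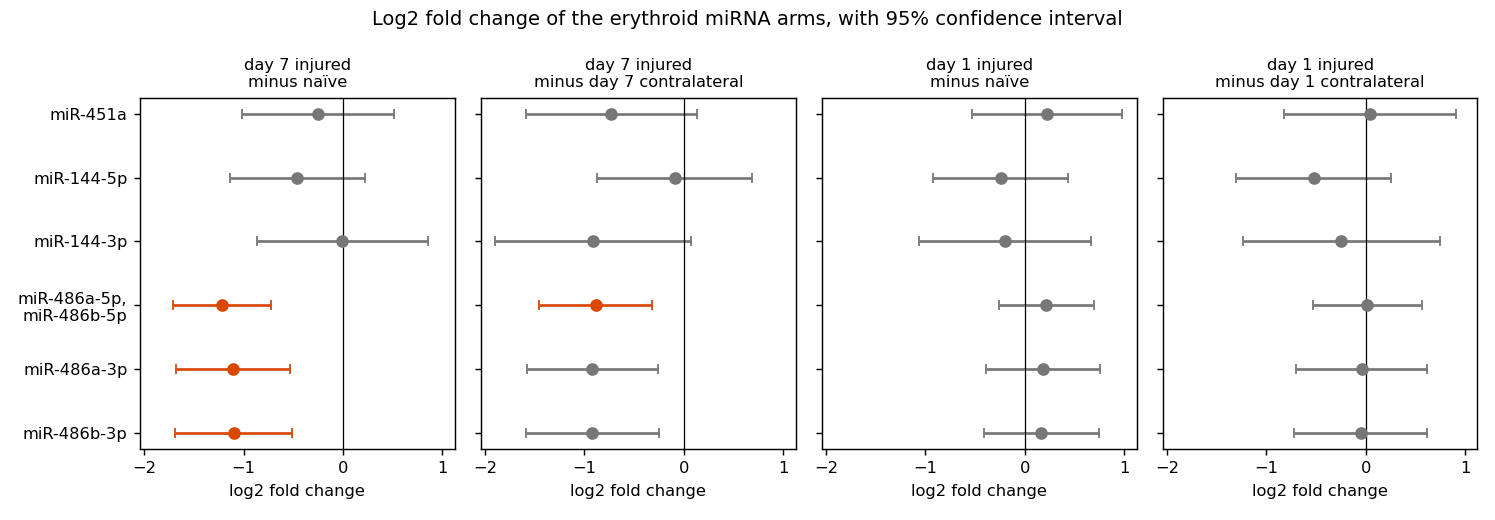
Log2 fold change of each measurement (x axis) in 4 comparisons, with 95% confidence intervals from limma-voom; orange marks an adjusted p under 0.05. The miR-486 measurements lie near -1 in both day 7 panels, and all 6 intervals cross 0 in both day 1 panels. Against naïve 3 of 6 measurements were called lower, where 18.2% of 428 miRNAs were called and 3.74% called lower. Against the contralateral knee it was 1 of 6, where 14.7% were called and 0.935% called lower. All these calls are of miR-486, whose 3p columns are near copies.

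Read as a set, the 6 measurements had a median log2 fold change of -0.78 in day 7 injured against naïve cartilage, beside -0.00 over all 428 miRNAs. Their groups did not overlap in 3 of 6, against 24.1% of all miRNAs. Against the contralateral knee at day 7 the median was -0.90, beside -0.05 over all. In that comparison 1 of 6 was called lower (miR-486-5p) and 3 of 6 did not overlap, where 14.7% of all miRNAs were called, 0.935% were called lower and 26.6% did not overlap. From day 1 to day 7 in injured knees 3 of 6 were called lower, where 15.7% of all were called and 3.5% were called lower, with a median of -0.87 beside -0.07. Their groups did not overlap in 3 of 6, against 34.3% of all miRNAs. These medians count the miR-486 3p strand under both of its near-copy columns. Over the 5 arms without miR-486b-3p the medians were -0.46 against naïve, -0.89 against the contralateral knee and -0.47 from day 1 to day 7 in injured knees, with 2, 1 and 2 of 5 called lower.

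At day 1 none of the 6 measurements was called against naïve or contralateral cartilage, and limma-voom called 0 of 428 miRNAs in either comparison (percent called 0), with 8 under an unadjusted p of 0.05 in each. edgeR and DESeq2 also called 0 in both. The log2 fold change of miR-486a-5p at day 1 was 0.22 ± 0.23 against naïve (adjusted p 0.992 by limma-voom) and 0.02 ± 0.26 against the contralateral knee (adjusted p 0.997). For miR-451a the same values were 0.22 ± 0.36 (adjusted p 0.992) and 0.04 ± 0.41 (adjusted p 0.997). Against naïve the sign of each turned only when a single library was left out (day 1 injured 2 for miR-486a-5p and day 1 injured 3 for miR-451a), while against the contralateral knee it also turned with library totals in place of TMM.

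Whether the injury difference itself changed between the days was tested by an interaction term. For miR-486a-5p the difference from the contralateral knee was 0.90 lower at day 7 than at day 1 on the log2 scale (-0.90 ± 0.38, unadjusted p 0.0264, adjusted p 0.191 by limma-voom), which did not pass. The term was -0.77 ± 0.58 for miR-451a (adjusted p 0.612 by limma-voom). None of the 6 measurements was called, while 6.78% of the 428 miRNAs were, all of these higher. Contralateral knees were compared with naïve ones as well, and limma-voom called 0% of the 428 miRNAs at day 1 or day 7, with 4 and 23 under an unadjusted p of 0.05. DESeq2 called 1 at day 7, and edgeR 0. There the log2 fold change of miR-486a-5p was -0.33 ± 0.23 at day 7 (adjusted p 0.675 by limma-voom) and 0.20 ± 0.23 at day 1 (adjusted p 0.996).

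Ratios taken within a library do not depend on library scaling, and 4 were compared by exact two-sided permutation tests. The log2 ratio of miR-486a-5p to miR-451a was 1.02, 0.83 and 1.11 in day 7 injured libraries and ran from 1.22 to 3.34 in naïve libraries. The injured libraries lay below all 6 naïve libraries, but the difference of means (-0.98) gave an exact permutation p of 0.0833, or 0.262 adjusted over the 4 ratios. Naïve libraries 3 and 5, which also had high GC content (below), gave the highest ratios (3.34 and 2.65), and the others ran from 1.22 to 1.70. Leaving out single libraries gave differences of -1.12 to -0.70, and the ratio was not compared without both of them. The smallest p for 3 against 6 libraries is 0.0119, which takes the naïve libraries as independent although they share mice. Against the day 7 contralateral knee, where the ratio was 0.52, 1.37 and 1.49, the difference was -0.14 (exact permutation p 0.7, and 3 against 3 cannot go below 0.1). Thus miR-486-5p was not shown to fall further than miR-451a.

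The 2 strands of the miR-486 hairpin kept a narrow ratio, with a log2 ratio of miR-486a-5p to miR-486a-3p of 3.56 ± 0.15 in day 7 injured and 3.66 ± 0.20 in naïve libraries (SD, exact permutation p 0.464). The log2 ratio of miR-451a to miR-144-3p was 2.30 ± 0.63 and 2.51 ± 0.43 in the same groups (exact permutation p 0.548). The arms of the miR-144 hairpin were less even. Their log2 ratio of 3p to 5p was -0.50, -0.47 and -0.47 in day 7 injured libraries and -0.93 ± 0.44 in naïve libraries (exact permutation p 0.131, or 0.262 adjusted). Among day 7 contralateral libraries it was 1.76, -0.58 and -0.10, so library 1 held more of the 3p arm where every other library of the study held more of the 5p arm. That library also had the highest miR-451a, the highest miR-144-3p and the lowest miR-144-5p of the study. It stood at the edge in lists given below too. Its summed leukocyte (16974 CPM) and vascular (98208 CPM) levels were the highest of the study, and its summed cartilage level (5029 CPM) the lowest. Its summed level of the other red-cell miRNAs listed below (13006 CPM) was the lowest as well, although its miR-451a and miR-144-3p were the highest.

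**Figure D3:**
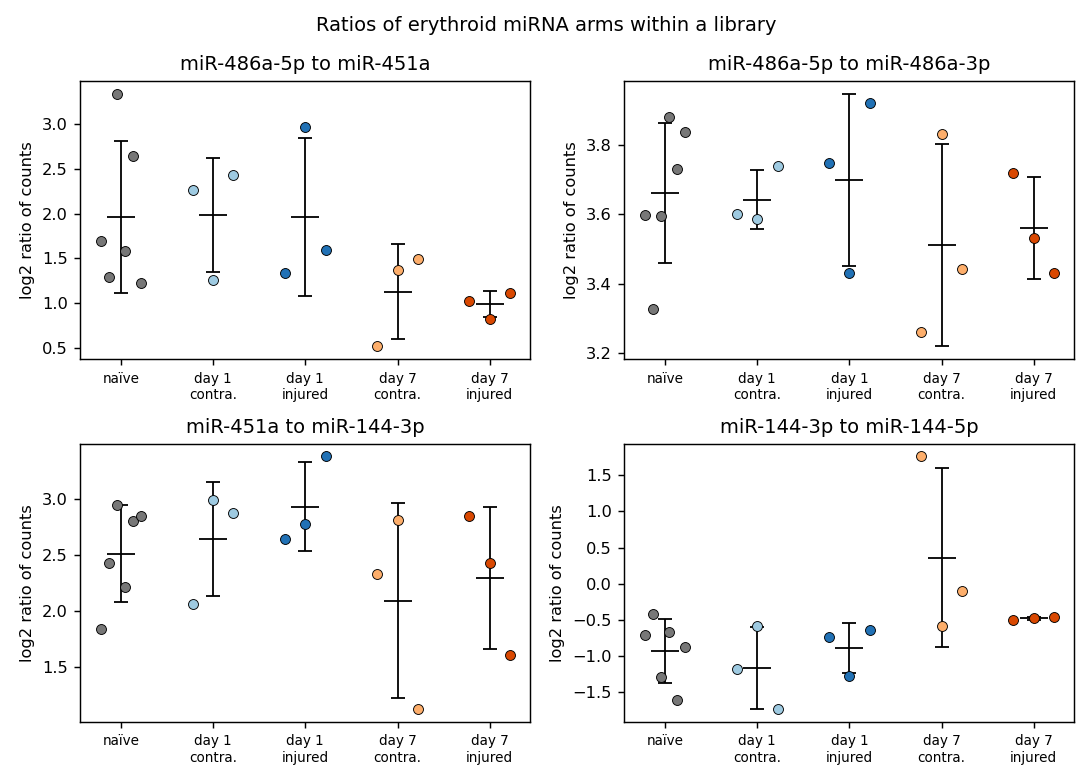
Log2 ratio of counts of a pair of arms within each library (y axis) by group, with the group mean and 1 SD as bars (n = 6 naïve, n = 3 elsewhere). The day 7 injured libraries lie below all naïve libraries for miR-486a-5p to miR-451a (0.83 to 1.11 against 1.22 to 3.34), and day 7 contralateral library 1 stands alone at 1.76 for miR-144-3p to miR-144-5p.

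As a description over the 18 libraries, log2 CPM of miR-486a-5p and miR-486a-3p had a Pearson r of 0.94, and miR-451a and miR-144-3p had 0.61. miR-451a had r of 0.08 with miR-486a-5p and -0.10 with miR-144-5p, an arm of its own cluster. miR-144-3p and miR-486a-5p had r of -0.36, and -0.70 after group means were removed. With group means removed, the pairs named before it had r of 0.85, 0.59, -0.22 and -0.13, in the order given. For miR-144-5p, r was 0.24 with miR-144-3p and 0.07 with miR-486a-5p, and 0.46 and -0.61 with group means removed. The erythroid miRNAs thus did not vary as a single set. The libraries share their groups, depth and base composition, so these coefficients carry no test.

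The miRNAs most like miR-486a-5p over the 18 libraries were miR-181a-5p (r = 0.912), miR-30d-5p (0.909), the lymphocyte miRNA miR-150-5p (0.876), miR-181b-5p (0.858) and miR-106b-3p (0.851). Of these 5, miR-150-5p (log2 fold change -1.54), miR-181a-5p (-0.78) and miR-30d-5p (-0.62) were called lower in day 7 injured against naïve cartilage. Those most like miR-451a were miR-29c-5p (0.843), miR-664-5p (0.774), the muscle miRNA miR-1a-1-5p (0.774), miR-350-3p (0.758) and the endothelial miRNA miR-126a-3p (0.756), and none of these was called. For miR-144-3p, looked up after its values were seen, the closest was miR-101a-3p (r = 0.951), the miRNA with the shared bases 2 to 7 printed above, followed by miR-142a-3p (0.884). For miR-144-5p the closest was miR-142a-5p (0.879).

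Other miRNAs tied to red-cell development (11 in the table, 11 tested) gave 0 calls in day 7 injured against naïve cartilage, with a median log2 fold change of -0.12 beside -0.00 over all miRNAs. The largest difference among them was that of miR-92a-3p (-0.66 ± 0.29, adjusted p 0.152 by limma-voom). The members differed in sign. Also below 0 were miR-15a-5p (-0.17), miR-16-5p (-0.23), miR-25-3p (-0.44), miR-221-3p (-0.12) and miR-222-3p (-0.18). Above 0 were miR-24-3p (0.19), miR-96-5p (0.61), miR-182-5p (0.32), miR-183-5p (0.37) and miR-210-3p (0.55). The summed level of the list was 17711 to 21017 CPM in day 7 injured, 18187 to 22541 in naïve and 13006 to 20357 in day 7 contralateral libraries. With members of opposite sign, the median and the sum do not show that each member was unchanged. No member was at 0 in any library. Against the contralateral knee they also gave 0 calls, with a median of 0.08.

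Because miR-486 is also a muscle miRNA, the skeletal muscle list (11 in the table, 7 tested) is given beside it. It gave 0 calls in day 7 injured against naïve cartilage with a median of -0.53, and 0 calls against the contralateral knee with a median of -0.89. Its largest difference against naïve was that of miR-133a-3p (-0.95 ± 0.42, adjusted p 0.141 by limma-voom). The summed level was 69657 to 133963 CPM in day 7 injured, 67533 to 198958 in naïve and 136738 to 249997 in day 7 contralateral libraries. In the contralateral comparison miR-133a-3p was -1.26 ± 0.47 (adjusted p 0.0838 by limma-voom) and miR-133b-3p, named after its value was seen, -1.27 ± 0.53 (adjusted p 0.136), both further from 0 than miR-486a-5p (-0.89). From day 1 to day 7 in injured knees, where miR-486 was called lower, the list had 1 lower call, miR-133a-5p (-1.42 ± 0.47, adjusted p 0.0453 by limma-voom, also named after seeing it), and a median of -0.55. Of its 11 members, 4 were at 0 in some library and none in all. Over single libraries the muscle sum and miR-486-5p did not rank alike. Day 1 injured library 2 had the lowest muscle sum (55122 CPM) and the highest miR-486-5p (7771 CPM). Day 7 injured library 2 was low in both (69657 and 2256 CPM). The part of muscle RNA in the miR-486 difference was not tested.

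The leukocyte list (10 in the table, 8 tested) had 1 miRNA called lower against naïve, miR-150-5p (-1.54 ± 0.36, adjusted p 0.00317 by limma-voom), and a median of -0.11. Its summed level was 8237 to 9689 CPM in day 7 injured and 6655 to 11228 in naïve libraries, with 3 members at 0 in some library. The vascular list (6 tested) had a median of 0.18 and the cartilage list (4 tested) a median of 0.20, with 0 calls in each. Their largest differences were those of miR-145a-5p (-0.65 ± 0.26, adjusted p 0.0975 by limma-voom) and miR-455-5p (0.60 ± 0.26, adjusted p 0.138). In the day 7 comparison of injured with contralateral knees the medians were -0.21 for leukocyte, -0.11 for vascular and 0.38 for cartilage miRNAs, again with 0 calls in each. From day 1 to day 7 in injured knees miR-150-5p was lower (-1.53 ± 0.41, adjusted p 0.0123 by limma-voom) and miR-455-5p higher (1.01 ± 0.31, adjusted p 0.0277), the only calls of these 3 lists. Their part in the miR-486 difference was not tested.

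Base composition moved with the levels of several arms. The mean GC content of the counted miRNAs, weighted by count over those with a RefSeq sequence, was 43.98% to 44.14% in 3 libraries (naïve 3, naïve 5 and day 1 injured 2) and 42.73% to 43.34% in the other 15. Those 3 libraries had the lowest miR-144-3p of the study, at 88.5, 125.5 and 144.1 CPM. Their miR-451a was 684, 882 and 988 CPM, and their miR-486-5p was 6939, 5527 and 7771. miR-144-5p, with a GC content (30.4%) close to that of miR-144-3p (30.0%) and below that of miR-451a (36.4%), was 216.9, 384.2 and 351.8 CPM there, so it did not stand apart as its sister arm did. Their summed muscle level was 93460, 67533 and 55122 CPM, all in the lower part of the range. Their totals were also low, at 1284839, 864123 and 946624 counts, and their TMM scaling factors (1.27, 1.36 and 1.26) were the highest of the study. Mean GC is computed from the same counts, so base composition, depth, scaling and muscle level cannot be told apart in these libraries.

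Without those 3 libraries miR-486a-5p was still called in day 7 injured against naïve cartilage (-1.04, adjusted p 0.00117 by limma-voom), as were both 3p arms. With mean GC as a covariate it was -0.98 (adjusted p 0.000562 by limma-voom). The other arms moved further from 0 without the 3 libraries, to -0.57 for miR-451a (adjusted p 0.243), -0.71 for miR-144-5p (adjusted p 0.141) and -0.51 for miR-144-3p (adjusted p 0.313), and stayed outside the threshold. Against the contralateral knee, 3 of 6 measurements were called without the 3 libraries and 4 of 6 with the covariate, which added miR-144-3p (-0.85, adjusted p 0.0401 by limma-voom). Lower calls over all miRNAs rose as well, from 4 of 428 to 13 of 440 without the 3 libraries and 13 of 428 with the covariate. Both alternatives were chosen after seeing the data.

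**Figure D4:**
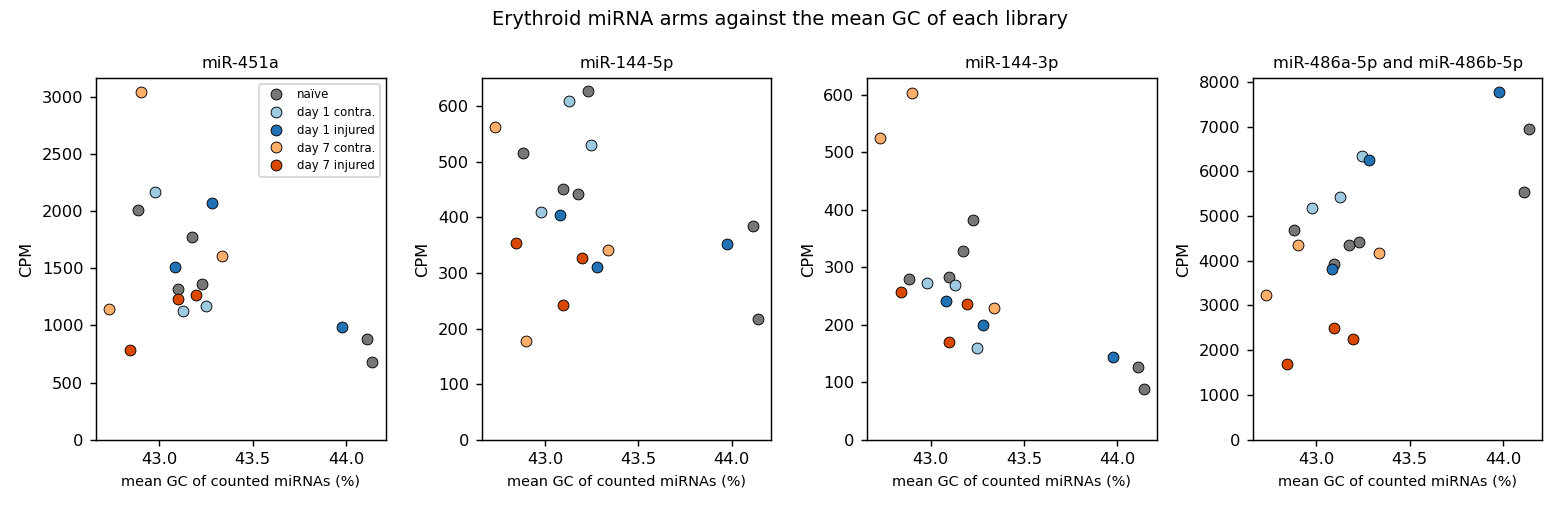
CPM of 4 measurements (y axis) against the mean GC content of the counted miRNAs in percent (x axis); each point is a library, coloured by group. The 3 libraries at 43.98% to 44.14% GC have the lowest miR-144-3p (88.5 to 144.1 CPM), low miR-451a and high miR-486-5p.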

How the data were processed

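The authors trimmed small RNA reads with Trim Galore 0.6.6 after FastQC 0.11.9, aligned them to miRBase mature miRNAs with Bowtie 1.3.0 and counted them with SAMtools 1.12, per the methods and the submitters' processing notes (genome GRCm38). The deposited values are raw counts per mature miRNA. Reads fitting several mature sequences, such as the miR-486 copies, cannot be assigned to either. The names of table rows differ in prefix from the sample labels and were matched by library number. No column of another series was used (0 found).

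Counts were filtered with edgeR 4.0.16 (filterByExpr, minimum count 10, minimum total 15), TMM-scaled and fitted with limma 3.58.1 (voom, 1 mean per group, all 18 libraries) in R 4.3.3, with Benjamini-Hochberg adjustment over 428 miRNAs. Log2 CPM used a prior count of 2 and ratios a pseudocount of 0.5. The study's block for mouse pools was not used because the labels do not identify them. DESeq2 1.42.0 and edgeR's quasi-likelihood test were alternatives.

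All members were described. The 5 miRNAs with the highest Pearson r to miR-451a and to miR-486a-5p, and in each marker list the miRNA with the largest difference in day 7 injured against naïve cartilage, were named. Members and lists were chosen with earlier results of these data known. GC content used the 365 of 428 tested miRNAs (85.3%) with a RefSeq sequence, holding 66.0% to 88.1% of counts.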

Additional observations from a re-analysis of the deposited data

How the results depend on the processing

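The settings tried were DESeq2 size factors, library totals only, every miRNA with a count, at least 10 counts in every library, edgeR, DESeq2, quality weights, identical columns kept once, log10 library total as a covariate, only the 2 groups fitted and leaving out each library, with other pseudocounts for the ratios alone; GC as a covariate and the 3 libraries of highest GC left out were added after seeing the data. In day 7 injured against naïve cartilage 3 of 6 measurements were called under every setting of the fit, except that quality weights gave 4 and the leave-one-out count ran from 1 to 3 (1 without day 7 injured library 3). Over all miRNAs, quality weights called 80 higher and 55 lower there, against 62 and 16, and library totals moved the median of all miRNAs to -0.13. Against the contralateral knee at day 7 the count of 1 became 0 with library totals, with at least 10 counts in every library and with only the 2 groups, 3 with edgeR, DESeq2, the log10 total or the 3 libraries left out, and 4 with GC as a covariate. Lower calls over all miRNAs moved too, from 4 to 0, 0 and 1, to 11, 13, 13 and 13, and to 13, in the same order. Leaving out single libraries gave 0 to 3 (0 without contralateral 1, contralateral 2, injured 2 or injured 3 of day 7, and 3 without day 1 injured 2). From day 1 to day 7 in injured knees the count of 3 became 1 with library totals. Lower calls over all 428 miRNAs fell from 15 to 3 under that setting. The count ran from 1 to 3 over left-out libraries (1 without day 1 injured 2 or day 7 injured 3). The cause was not tested.

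The sign turned in log2 fold changes that were not called. Day 7 injured against naïve, miR-144-3p was 0.020 with at least 10 counts in every library, 0.032 with identical columns kept once and 0.030 with only the 2 groups. Day 7 injured against contralateral, miR-144-5p was 0.016 with the log10 total. Day 7 against day 1 injured, miR-144-3p was -0.33 with GC. Day 1 injured against naïve, miR-486a-3p and miR-486b-3p were -0.0255 and -0.042 with library totals, -0.011 and -0.037 with quality weights, and -0.033 and -0.069 with the 3 libraries left out. Day 1 injured against contralateral, miR-451a was -0.077 with library totals and miR-144-3p 0.18 with GC, while miR-486a-5p was -0.12 with library totals, -0.25 with quality weights, -0.021 with the log10 total, -0.18 with GC and -0.22 with the 3 libraries left out. miR-486a-3p and miR-486b-3p were 0.066 and 0.061 with edgeR and 0.0998 and 0.095 with DESeq2 there. Day 7 contralateral against naïve, miR-451a was -0.0058 with quality weights, and miR-486a-3p and miR-486b-3p were 0.090 and 0.091 with GC. Day 1 contralateral against naïve, miR-451a was -0.062 with quality weights, -0.079 with GC and -0.17 with the 3 libraries left out, and miR-144-3p was -0.022 with DESeq2 size factors, -0.035 with library totals, -0.087 with edgeR, -0.15 with DESeq2, -0.26 with quality weights, -0.0069 with identical columns kept once, -0.060 with the log10 total, -0.39 with GC and -0.48 with the 3 libraries left out.

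Leaving out each library turned the sign of these. Day 7 injured against naïve, miR-451a ran from -0.39 to 0.010 and miR-144-3p from -0.23 to 0.23, and against contralateral, miR-144-5p from -0.45 to 0.28. Day 1 injured against naïve, miR-451a ran from -0.11 to 0.41, miR-486a-5p from -0.078 to 0.40, miR-486a-3p from -0.25 to 0.38 and miR-486b-3p from -0.29 to 0.37. Against contralateral at day 1 the same 4 ran from -0.23 to 0.33, -0.22 to 0.26, -0.41 to 0.22 and -0.44 to 0.22. Day 7 against day 1 injured, miR-144-5p ran from -0.22 to 0.10. Among controls, miR-144-5p ran from -0.73 to 0.023 (day 7 against naïve), miR-451a from -0.19 to 0.30 and miR-144-3p from -0.28 to 0.23 (day 1 against naïve), and miR-451a from -0.032 to 0.66 (day 7 against day 1). Of the ratios, miR-451a to miR-144-3p ran from -0.50 to 0.13 against naïve and -0.28 to 0.56 against contralateral, where miR-486a-5p to miR-451a ran from -0.44 to 0.043 and miR-486a-5p to miR-486a-3p from -0.077 to 0.21. Groups of 3 pooled libraries limit the precision of every value.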
